A study of Mus musculus with 9 samples.

Results

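Enteroendocrine cells are the scattered hormone-producing cells of the gut epithelium, and their messages can be followed in the bulk RNA of colonic crypts. The 10 genes described here are Chga, Chgb, Tph1, Insl5, Pyy, Gcg, Sct, Cck, Sst and Neurod1, taken by symbol from the deposited table, which lists 54146 genes. The table covers 9 C57BL/6J mice at 15 wk of age, 5 of the genotype ApcMin/+ (2 females and 3 males) and 4 of the genotype ApcMin/+; p16cis/cis (3 females and 1 male). Both groups carry the germline ApcMin mutation, in the heterozygous state, which makes the intestine prone to tumors. The RNA came from colonic crypts, of mucosa that looked normal. The second group also carries, on both alleles and in all tissues, the p16cis knock-in, a short DNA element that spreads DNA methylation over the p16 promoter, so the only labelled difference between the groups is that allele, beside the uneven split of the sexes. No wild-type mice were analysed here. Cdkn2a, which encodes p16, was listed at 0 in all 9 libraries, so the labels could not be checked with it. The epithelial marker Epcam was high in every mouse, at 24444 to 38616. Values are normalized counts, the authors having scaled the counts of each mouse by its own size factor, and 1 mouse is 1 replicate.

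Enteroendocrine cells arise from crypt progenitors that switch on Neurog3 and then Neurod1, and each cell packs its hormones into dense-core granules that are released into the lamina propria when receptors at the cell surface sense nutrients, microbial products or nerve signals. In the colon the main kinds are enterochromaffin cells, which make serotonin with the enzyme Tph1 and are rich in the granule proteins chromogranin A and B (Chga, Chgb), and L cells, which make peptide YY (Pyy), the glucagon-like peptides (from Gcg) and insulin-like peptide 5 (Insl5). Somatostatin (Sst) is made by D cells, and secretin (Sct) and cholecystokinin (Cck) are better known from the small intestine.

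All 10 genes are annotated as protein-coding in GENCODE M21 (GRCm38). On the plus strand, Chga (ENSMUSG00000021194.6) lies at chr12:102554969-102565028 and Chgb (ENSMUSG00000027350.8) at chr2:132781278-132795079. The other genes lie on the minus strand, Insl5 at chr4:103017872-103026842, Pyy at chr11:102106676-102107832, Gcg at chr2:62474530-62483650 and Tph1 at chr7:46644641-46672537. Sct lies at chr7:141278330-141279133, Cck at chr9:121489824-121495694, Sst at chr16:23889573-23890958 and Neurod1 at chr2:79452521-79456751, so these genes share no locus and are spread over 7 chromosomes.

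The sequences before the start sites are shown for the genes on which the results turn, an enterochromaffin gene that was lower and 2 L-cell genes with higher means, and for the short stretch that 2 members have in common. They come from RefSeq (GRCm38.p6), are written 5′ to 3′ on the strand of the gene, and stop at the RefSeq start site or, where GENCODE places an exon further upstream, at that exon. Capitals mark the letters CAGNTG, an E-box that basic helix-loop-helix factors such as Neurod1 bind, and TGACGTCA, the cAMP response element, both searched on either strand. The first is the stretch before Chga at chr12:102554691-102554940, the second that before Insl5 at chr4:103026843-103026978 and the third that before Pyy at chr11:102107833-102108082.
Chga: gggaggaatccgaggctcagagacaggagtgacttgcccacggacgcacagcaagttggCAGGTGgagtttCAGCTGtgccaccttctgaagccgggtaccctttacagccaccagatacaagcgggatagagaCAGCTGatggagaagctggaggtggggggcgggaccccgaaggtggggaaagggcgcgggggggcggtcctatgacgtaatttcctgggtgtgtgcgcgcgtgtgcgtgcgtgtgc
Insl5: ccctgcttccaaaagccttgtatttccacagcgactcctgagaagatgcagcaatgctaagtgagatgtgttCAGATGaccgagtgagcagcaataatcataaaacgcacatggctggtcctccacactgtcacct
Pyy: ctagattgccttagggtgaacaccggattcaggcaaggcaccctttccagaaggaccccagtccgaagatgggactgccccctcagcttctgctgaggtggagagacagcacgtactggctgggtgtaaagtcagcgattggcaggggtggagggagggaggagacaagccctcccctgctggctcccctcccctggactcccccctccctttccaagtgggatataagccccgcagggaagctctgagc

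The E-box letters occur 3 times before Chga, 1 time before Insl5 and 0 times before Pyy. In the 250 bases before the start site they were found in 6 of 10 members (Cck, Chga, Chgb, Gcg, Insl5 and Sct), against 44.8% of all 32851 RefSeq windows of that length. The cAMP response element was found in 2 of 10 members, Chgb and Sst, against 1.55% of all windows. It is shown with 10 bases on each side, at chr2:132781560-132781587 for Chgb and at chr16:23890875-23890902 for Sst, and in GENCODE both stretches fall within exon 1. The letters TATAAA, read on either strand and apart from the other motifs, were found in 3 of 10 members (Gcg, Insl5 and Sct) against 12.4% of all windows. These are matches of letters and not measured binding sites.
Chgb: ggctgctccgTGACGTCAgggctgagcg
Sst: cctccttggcTGACGTCAgagagagagt

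The summed count of the 10 hormone genes overlapped between the 2 genotypes, and single genes differed in both directions. Chgb and Chga, the granins of enterochromaffin cells, were lower in ApcMin/+; p16cis/cis mice, and Insl5, the L-cell hormone, was higher. Of the 10 members, 3 passed the test (limma on log2(normalized count + 1), adjusted p under 0.05 over 14410 genes), 2 lower and 1 higher, while 16.9% of all tested genes passed in either direction, 8.75% lower and 8.14% higher. With a fold change over 2 also required, Chgb (lower) and Insl5 (higher) remained, against 3.48% of all genes, 1.64% lower and 1.83% higher. At an unadjusted p under 0.05 the test gave 5 of 10 members, these 3 with Tph1 and Pyy, and 33.2% of all genes. Chga did not pass with sex as a covariate, and neither granin passed in females alone. Insl5 did not pass without ApcMin/+; p16cis/cis replicate 4. The median log2 fold change of the members was -0.12, and that of all tested genes -0.0041. In bulk tissue, fewer cells of a kind and less RNA per cell cannot be told apart.

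**Figure D1:**
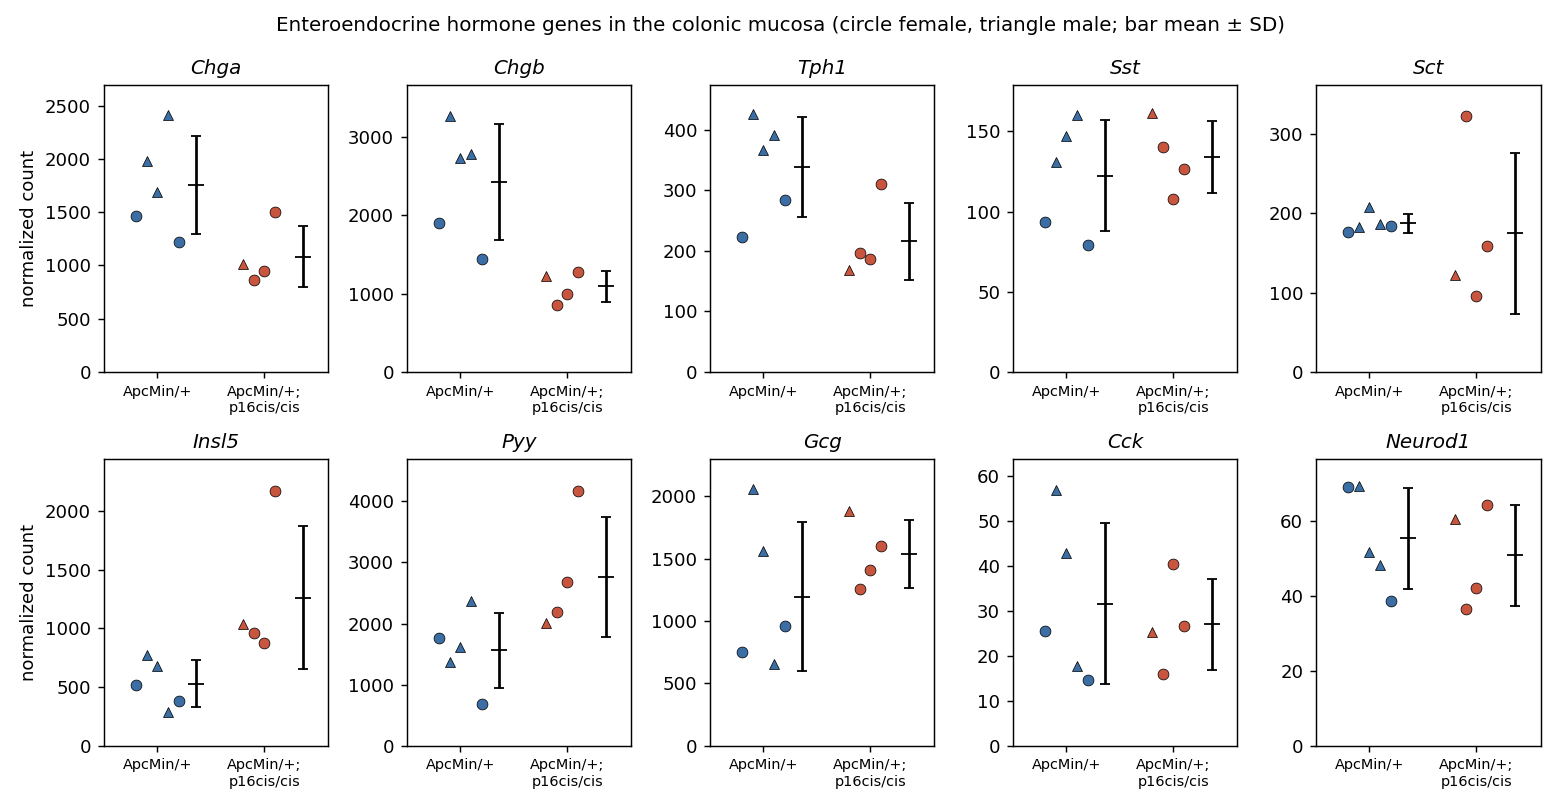
Normalized count (y axis, from 0) of each of the 10 hormone genes in every mouse, with ApcMin/+ mice in blue and ApcMin/+; p16cis/cis mice in red. Circles are females, triangles males, and the bar beside each group gives the mean ± SD. The genotypes do not overlap for Chgb (859.8 to 1279.9 against 1447 to 3276) or for Insl5 (874.6 to 2169.7 against 289.8 to 773).

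Chgb, which encodes a soluble protein of the granule matrix, had normalized counts of 1899, 3276, 2736.5, 2788 and 1447 in ApcMin/+ replicates 1 to 5 and of 1232.5, 859.8, 1001 and 1279.9 in ApcMin/+; p16cis/cis replicates 1 to 4. Every ApcMin/+; p16cis/cis mouse was below every ApcMin/+ mouse, which held for 16.2% of tested genes in either direction and for 8.95% in this direction. The means were 2429 ± 739 (SD, n = 5) and 1093 ± 198 (SD, n = 4), a log2 fold change of -1.11 (SE 0.22, 95% interval -1.59 to -0.63, limma adjusted p = 0.00846), or 2.16-fold lower. The exact permutation test, two-sided, gave p = 0.0159, the smallest that 5 mice against 4 can give.

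Chga, the most widely used marker of enteroendocrine cells, encodes a granule protein that is cut into several small peptides. It was counted at 1465, 1977, 1692, 2414 and 1222.5 in the ApcMin/+ mice and at 1015, 864.6, 949.7 and 1502 in the ApcMin/+; p16cis/cis mice. The groups overlapped, since ApcMin/+; p16cis/cis replicate 4 was above ApcMin/+ replicates 1 and 5. The means were 1754 ± 462 (SD, n = 5) and 1083 ± 286 (SD, n = 4), and the log2 fold change was -0.69 (SE 0.20, 95% interval -1.13 to -0.25, limma adjusted p = 0.0373). The call was near the threshold. It was lost when ApcMin/+ replicate 2 (limma adjusted p = 0.0852) or 3 (0.0744), or ApcMin/+; p16cis/cis replicate 1 (0.0747), 2 (0.111) or 3 (0.0801), was left out.

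Tph1, the rate-limiting enzyme of serotonin synthesis in the gut, was counted at 223, 425, 366, 391.5 and 284 in the ApcMin/+ mice and at 169, 196, 186 and 310.2 in the ApcMin/+; p16cis/cis mice. The means were 338 ± 82.7 (SD, n = 5) and 215 ± 64.1 (SD, n = 4), a log2 fold change of -0.65 (SE 0.22, 95% interval -1.13 to -0.17). This did not pass the test (limma adjusted p = 0.0645), and the groups overlapped, with 3 of 4 ApcMin/+; p16cis/cis mice below every ApcMin/+ mouse. Tph1 did pass with DESeq2 on the recovered reads (adjusted p = 0.0354) and not with edgeR (adjusted p = 0.0673). Within a mouse, the count of Tph1 was 0.152 to 0.232 times that of Chga in the ApcMin/+ group and 0.167 to 0.227 times in the other, so this ratio overlapped between the genotypes.

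The L-cell genes had higher means in ApcMin/+; p16cis/cis mice, by different amounts. Insl5, whose peptide is made in the distal colon and rectum and acts on the receptor Rxfp4, was counted at 514, 773, 680, 289.8 and 381 in the ApcMin/+ mice. In the ApcMin/+; p16cis/cis mice it was counted at 1040.5, 957, 874.6 and 2169.7, all above the ApcMin/+ mice, as was the case for 7.24% of tested genes. The log2 fold change was 1.24 (SE 0.31, 95% interval 0.56 to 1.92, limma adjusted p = 0.0211), from means of 528 ± 201 (SD, n = 5) and 1260.5 ± 610 (SD, n = 4). Replicate 4 stood far above the other ApcMin/+; p16cis/cis mice, and without it the log2 fold change was 0.94 and the limma adjusted p 0.0607.

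Pyy, the L-cell peptide that slows transit and reduces food intake, was counted at 1764, 1369, 1615.5, 2366 and 684 in the ApcMin/+ mice and at 2017, 2195, 2684 and 4175 in the ApcMin/+; p16cis/cis mice. Only ApcMin/+ replicate 4 overlapped with the other group, and it was above 2 of the 4 ApcMin/+; p16cis/cis mice. The means were 1559.8 ± 612 (SD, n = 5) and 2768 ± 979.7 (SD, n = 4), a log2 fold change of 0.88 (SE 0.31, 95% interval 0.20 to 1.55) that did not pass (limma adjusted p = 0.0721). Without ApcMin/+ replicate 4 it passed at 1.05 (limma adjusted p = 0.0204), as it did in all 9 mice with DESeq2 (adjusted p = 0.0306) and not with edgeR (adjusted p = 0.0739).

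Gcg, which encodes the precursor of the glucagon-like peptides, did not separate the genotypes. It was counted at 753, 2059.5, 1559.9, 653 and 959 in the ApcMin/+ mice and at 1884, 1255, 1414 and 1601 in the ApcMin/+; p16cis/cis mice, so the second group lay inside the range of the first. The log2 fold change was 0.48 (SE 0.29, 95% interval -0.15 to 1.12, limma adjusted p = 0.276), and the spread was wider in ApcMin/+ mice, where the coefficient of variation was 49.9% against 17.6%. Of the 3 L-cell genes only Insl5 thus passed the test in all 9 mice. Within a mouse the ratios of Insl5 to Gcg, of Pyy to Gcg and of Insl5 to Pyy overlapped between the genotypes.

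The other 4 members did not pass the test, and their groups overlapped. Sst, whose peptide restrains the release of other gut hormones, ranged from 79.5 to 160.2 without and from 108 to 162 with the p16cis allele, and its log2 fold change was 0.17 (95% interval -0.33 to 0.67). Neurod1, the transcription factor of the differentiating enteroendocrine cell, ranged from 38.6 to 69.4 and from 36.7 to 64.2, a log2 fold change of -0.12 (95% interval -0.70 to 0.45). These intervals still allow differences of moderate size in either direction.

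Sct, encoding secretin, which drives bicarbonate secretion, was nearly level in ApcMin/+ mice at 176, 183, 208, 187 and 184 and uneven in ApcMin/+; p16cis/cis mice at 122, 322, 96.2 and 158. Its coefficient of variation was 6.40% in the first group and 58.1% in the second, against 7.57% and 9.28% from counting error alone. The log2 fold change was -0.26 (95% interval -0.87 to 0.36). Cck, encoding cholecystokinin, was the least counted member at 14.8 to 57.1 and 15.95 to 40.6, with 10 to 60 reads in each library, a log2 fold change of -0.11 and a 95% interval of -1.04 to 0.81, the widest of the 10.

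**Figure D2:**
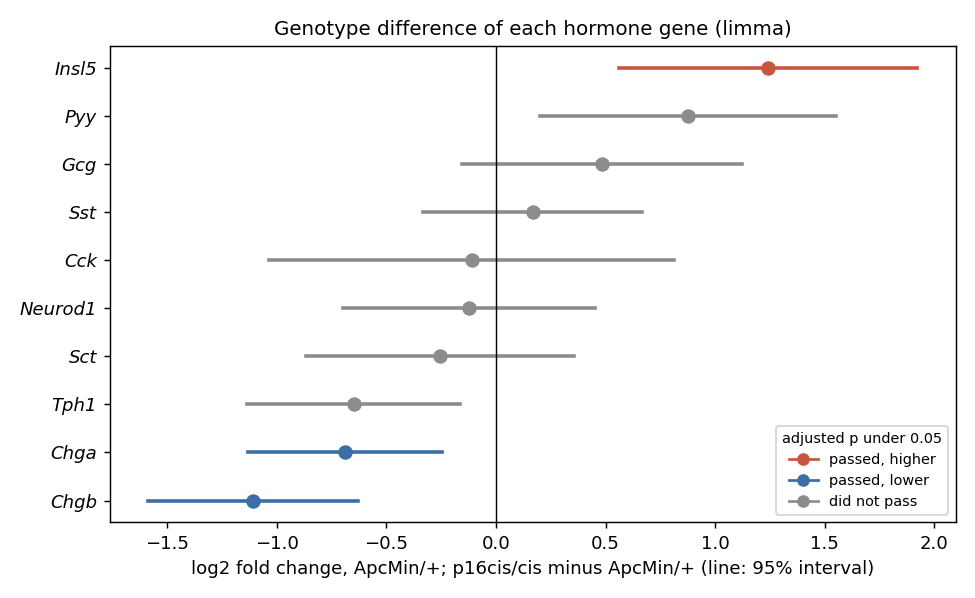
Log2 fold change (x axis, ApcMin/+; p16cis/cis minus ApcMin/+) of each hormone gene from limma, with its 95% interval as a line. Blue marks genes that passed lower, red those that passed higher and grey those that did not pass. The estimates run from -1.11 for Chgb to 1.24 for Insl5, and the intervals of Tph1 and Pyy leave out 0 although their adjusted p-values were over 0.05.

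As shares of their summed count, 5 of the 10 members did not overlap between the genotypes. As normalized counts 2 of 10 did not, against 16.2% of all tested genes, and no background over all genes was computed for the shares. In each mouse the counts of the 10 genes were summed, and each gene was expressed as a share of that sum, without correction for transcript length, which removes the size factor of the library. The sum itself overlapped, at 8203 ± 2028.5 (SD, n = 5) for ApcMin/+ and 8345 ± 2078 (SD, n = 4) for ApcMin/+; p16cis/cis. Chgb made up 27.2 to 31.7% of the sum in ApcMin/+ mice and 11.2 to 15.9% in the others, and Chga 18.6 to 25.9% and 12.6 to 13.2%. The share of Tph1 was 3.20 to 5.36% and 2.19 to 2.87%. For these 3 members every ApcMin/+; p16cis/cis mouse was below every ApcMin/+ mouse.

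Insl5 and Pyy had larger shares in every ApcMin/+; p16cis/cis mouse. Insl5 accounted for 3.11 to 7.49% in ApcMin/+ mice and for 11.8 to 19.0% in ApcMin/+; p16cis/cis mice, and Pyy for 12.9 to 25.4% and 26.1 to 36.6%. The shares of the other 5 members (Gcg, Sct, Cck, Sst and Neurod1) overlapped between the groups. Shares of 1 sum are tied to each other, so a lower share of some members forces a higher share of others, and these values are given as a description without a test.

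**Figure D3:**
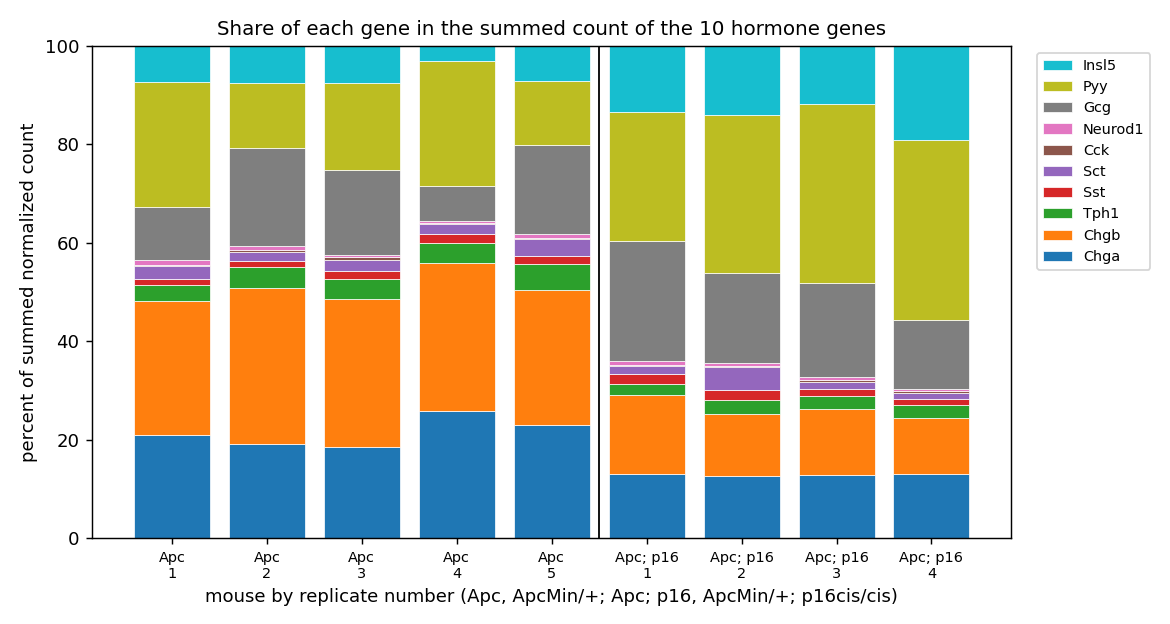
Share of each of the 10 hormone genes in their summed normalized count (y axis, percent), with 1 bar for each mouse. The bars to the left of the line are ApcMin/+ replicates 1 to 5 (marked Apc) and those to the right ApcMin/+; p16cis/cis replicates 1 to 4 (marked Apc; p16), where the blocks of Chga, Chgb and Tph1 are smaller and those of Pyy and Insl5 larger in every mouse.

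Ratios of single genes within a mouse need neither a size factor nor the rest of the sum. Insl5 was counted at 0.104 to 0.271 times Chgb in ApcMin/+ mice and at 0.844 to 1.70 times Chgb in ApcMin/+; p16cis/cis mice. Against Chga, the ratio of Insl5 was 0.120 to 0.402 and 0.921 to 1.44. The ratio of Pyy to Chgb was 0.418 to 0.929 and 1.64 to 3.26, and that of Pyy to Chga 0.560 to 1.20 and 1.99 to 2.83. All 4 of these ratios separated the genotypes without overlap, and the ratio of Chgb to Chga, at 1.15 to 1.66 and 0.852 to 1.21, did not. The 4 ratios set genes with higher means over genes with lower means, so their separation is no further support. For Insl5 and Chgb it follows from the counts, which separated the genotypes in opposite directions. How often ratios of other gene pairs separate was not computed.

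For the order of levels, the normalized count was divided by the summed exon length of the gene in kb. In ApcMin/+ mice the mean level per kb was highest for Pyy at 2472, followed by Chgb at 887, Gcg at 801, Insl5 at 729 and Chga at 636, and these 5 neighbours overlapped in their ranges. Below them came Sct at 291, Sst at 169.7 and Tph1 at 54.7, each of whose ranges lay under that of the gene before it, and then Cck at 24.2 and Neurod1 at 20.3, which overlapped with the gene before them. In ApcMin/+; p16cis/cis mice Pyy was first at 4386 per kb and Insl5, which ranked below Gcg in the other genotype, came next at 1741, without overlap between them.

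Gcg followed at 1030 per kb, then Chgb at 399 and Chga at 393, so that the 3 L-cell genes ranked above both granins in that genotype. The range of Gcg overlapped with that of Insl5 and lay above that of Chgb. Sct at 271, Sst at 186, Tph1 at 34.9, Cck at 20.8 and Neurod1 at 18.7 kept the order of the ApcMin/+ mice, and of these neighbours only Sst and Tph1 did not overlap.

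Sex was uneven between the genotypes and moved with several members among the ApcMin/+ mice. Within the ApcMin/+ group, Chgb averaged 2933 in 3 males and 1673 in 2 females, Chga 2027 and 1344, Tph1 394 and 253, and Sst 146 and 86.6, and for each of these 4 genes the males lay above both females. The 1 male of the other group was above its females for Sst only (162 against 108 to 140). Its Tph1 of 169 was below theirs (186 to 310). Its Chgb of 1232.5 and Chga of 1015 lay within their ranges (859.8 to 1279.9 and 864.6 to 1502). With sex as a covariate, Chgb kept a log2 fold change of -0.90 (limma adjusted p = 0.0125) and Insl5 of 1.27 (limma adjusted p = 0.0420), while Chga had -0.57 and no longer passed (limma adjusted p = 0.0925).

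Among females alone (2 ApcMin/+ and 3 ApcMin/+; p16cis/cis mice), the L-cell genes had higher means and the granins no longer passed. Insl5 had a log2 fold change of 1.46 (limma adjusted p = 0.0441), Gcg of 0.74 (0.0401) and Pyy of 1.40 (0.0585). Chgb had -0.68 (limma adjusted p = 0.0728), Chga -0.32 (0.413) and Tph1 -0.16 (0.741). In the females Chgb was still 859.8 to 1279.9 in ApcMin/+; p16cis/cis mice against 1447 and 1899 in ApcMin/+ mice, without overlap, and Chga at 864.6 to 1502 against 1222.5 and 1465 overlapped. The difference of the genotype effect between the sexes was not tested, since the ApcMin/+; p16cis/cis group holds 1 male.

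The libraries of the 2 genotypes also differed as wholes. Reads on genes were 15745098 to 17885918 for each ApcMin/+ mouse and 13523500 to 14900228 for each ApcMin/+; p16cis/cis mouse, and the 37 mitochondrial genes took 8.74 to 15.6% and 19.3 to 29.8% of them, without overlap in either measure. Of reads on genes outside the mitochondrion, the 10 members together took 0.0512% ± 0.0127 (SD, n = 5) and 0.0524% ± 0.0120 (SD, n = 4). With these reads as the library size, an alternative chosen after seeing the data, Chgb had a log2 fold change of -1.10 (limma adjusted p = 0.00753), Chga of -0.68 (0.0287), Insl5 of 1.25 (0.0260) and Pyy of 0.88 (0.0523). With the mitochondrial share as a covariate, which almost coincides with genotype, 0 members passed in limma. At an unadjusted p under 0.05 there were then 2, Sct and Gcg, and Chgb had a log2 fold change of -0.20 and Insl5 of 1.52. The effect of genotype and that of the mitochondrial share cannot be told apart here.

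The wider enteroendocrine program was described with 6 lists of genes, for transcription factors, granule and processing proteins, amine handling, other gut peptides, hormone receptors and sensors. Of 105 listed genes 71 had enough signal to be tested, of which 6 passed lower, 4 higher and 61 not. These 10 of 71 stand against 16.9% of all tested genes (8.75% lower, 8.14% higher), so calls were no more frequent in the lists than among all genes. Their median log2 fold change was 0.10. Of the transcription factors, 18 of 20 were tested and 1 passed, Nkx2-2, which acts in the specification of enteroendocrine cells. It was counted at 27.2 to 62.8 in ApcMin/+ mice and at 68.2, 79.8, 75.1 and 173.9 in ApcMin/+; p16cis/cis mice, a log2 fold change of 1.01 (SE 0.32, limma adjusted p = 0.0491) that was 0.71 without replicate 4 (limma adjusted p = 0.143). The call held in 1 of 9 fits with 1 mouse left out. The early factor Neurog3, at 15.3 to 46.9 and 21.5 to 39.1, overlapped, and 17 factors did not pass. Of the 18 tested, 12 had positive and 6 negative fold changes. In limma 3 had an unadjusted p under 0.05, against 33.2% of all tested genes. Besides Nkx2-2 the 3 were Fev (log2 fold change 0.79, limma adjusted p = 0.105) and Insm1 (-0.50, 0.145).

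The granule list held 5 of these 10 calls, with 21 of 22 genes tested, 2 lower and 3 higher. Pcsk1, the convertase that cuts prohormones in L cells and other endocrine cells, was counted at 278, 505, 455, 388 and 438 in ApcMin/+ mice and at 237, 203, 195 and 135 in ApcMin/+; p16cis/cis mice, without overlap. The log2 fold change was -1.10 (SE 0.20, limma adjusted p = 0.00638). Pcsk1n, which encodes proSAAS, an inhibitor of that convertase, was counted at 158, 81.8, 82.9, 112 and 65.8 against 183, 207, 159 and 299, also without overlap, a log2 fold change of 1.10 (SE 0.26, limma adjusted p = 0.0171, and 0.0596 without ApcMin/+; p16cis/cis replicate 4 and 0.132 in females). Within a mouse the ratio of Pcsk1n to Pcsk1 was 0.150 to 0.570 in the first genotype and 0.771 to 2.22 in the second. This separation follows from those of the 2 genes.

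Ptprn2, a phosphatase-like protein of the granule membrane, fell by 1.00 on the log2 scale (SE 0.26, limma adjusted p = 0.0228), from 539 ± 127 (SD, n = 5) to 278 ± 105 (SD, n = 4), with overlap. This call was lost with sex as a covariate (limma adjusted p = 0.0544), in females (0.0944), and without ApcMin/+ replicate 2 (0.0569) or 3 (0.0542) or ApcMin/+; p16cis/cis replicate 2 (0.0696) or 4 (0.0664). Cplx2, a complexin that clamps vesicle fusion, was higher at 322 ± 15.0 (SD, n = 4) than at 217 ± 28.3 (SD, n = 5), a log2 fold change of 0.57 (SE 0.13, limma adjusted p = 0.0134). The vesicle protein Syp was at 21.5 to 33.5 and 34.6 to 56.4, a log2 fold change of 0.81 whose limma adjusted p of 0.04998 was at the threshold and which passed in 1 of 9 fits with 1 mouse left out. The carboxypeptidase Cpe, which trims hormones after the convertases, was at 158 to 273 and 123 to 189.6 and did not pass (limma adjusted p = 0.108). The calls in the granule list thus went in both directions, as did those among all tested genes (8.75% lower, 8.14% higher).

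Of the genes for making, storing and removing amines, 8 of 10 were tested and 0 passed in limma. At an unadjusted p under 0.05 there were 3, against 33.2% of all tested genes. By the count tests, edgeR called 0 and DESeq2 called 2, both lower, Maoa and Maob, the oxidases that degrade serotonin and other amines. Maoa, at 14358 ± 2093 (SD, n = 5) and 10951 ± 331 (SD, n = 4), had a log2 fold change of -0.38 (limma adjusted p = 0.0524). The decarboxylase Ddc, which completes the synthesis of serotonin after Tph1, overlapped between the genotypes, at 1127 to 1562 and 947 to 1773.

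Of 14 other gut peptides 5 were tested, and Nts (neurotensin) was lower, at 63.6, 173, 185, 168 and 103 in ApcMin/+ mice against 69.5, 87.7, 16.5 and 21.9, a log2 fold change of -1.71 (SE 0.49, limma adjusted p = 0.0340) with overlap. This call was lost with sex as a covariate (limma adjusted p = 0.0727), in females (0.232), and without ApcMin/+ replicate 2 (0.0776) or 3 (0.0822) or ApcMin/+; p16cis/cis replicate 3 (0.0798) or 4 (0.107). At an unadjusted p under 0.05 limma gave 4 of the 5, against 33.2% of all tested genes. DESeq2 called 1 lower (Nts) and 1 higher (Tac1). Tac1 was at 80.1 to 136 in ApcMin/+ mice and 124 to 230 in ApcMin/+; p16cis/cis mice (log2 fold change 0.72, limma adjusted p = 0.0591). Ghrl, with 2 to 15 reads, was higher without overlap, at 2.54 to 9.76 and 10.5 to 18.9 (1.16, 0.0914). Adm had a log2 fold change of -0.94 (limma adjusted p = 0.138). The peptides Gip and Gast were at or near 0 in all mice, with Gip at most 1.14. Of 21 receptor genes 8 were tested, and Sstr1, a receptor for somatostatin, was counted at 132, 310, 334, 329 and 143 in ApcMin/+ mice and at 104, 73.4, 51.1 and 43.9 in ApcMin/+; p16cis/cis mice, without overlap. Its log2 fold change was -1.82 (SE 0.35, limma adjusted p = 0.00729). Rxfp4, the receptor of Insl5, and Glp1r, a receptor of the glucagon-like peptides, stayed at or under 5.58 and 4.51. These values are near the 3-read floor of 2.85 to 4.79 normalized counts, which covers counting error only. Glp2r, another receptor of these peptides, was not tested and was at 1.27 to 5.68 in ApcMin/+ mice and 4.51 to 12.8 in ApcMin/+; p16cis/cis mice.

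Among the sensors 11 of 18 were tested and 2 were lower. Adra2a, the receptor through which noradrenaline acts on enterochromaffin and other epithelial cells, was counted at 1560, 1470, 2272, 2686 and 1301 in ApcMin/+ mice and at 549, 748, 666 and 523 in ApcMin/+; p16cis/cis mice. The log2 fold change was -1.54 (SE 0.21, limma adjusted p = 0.00195), and the groups did not overlap. Slc5a1, the sodium-glucose carrier, was lower by a log2 fold change of -0.46 (SE 0.12, limma adjusted p = 0.0211), a call lost with sex as a covariate (0.0566), in females (0.172) and without ApcMin/+ replicate 2 (0.0562) or ApcMin/+; p16cis/cis replicate 2 (0.0700) or 4 (0.0665). Ffar2, a receptor for short-chain fatty acids on L cells, was at 396 to 589 and 449.6 to 756 and did not pass (limma adjusted p = 0.195). Both genes that passed here are also expressed outside enteroendocrine cells.

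**Figure D4:**
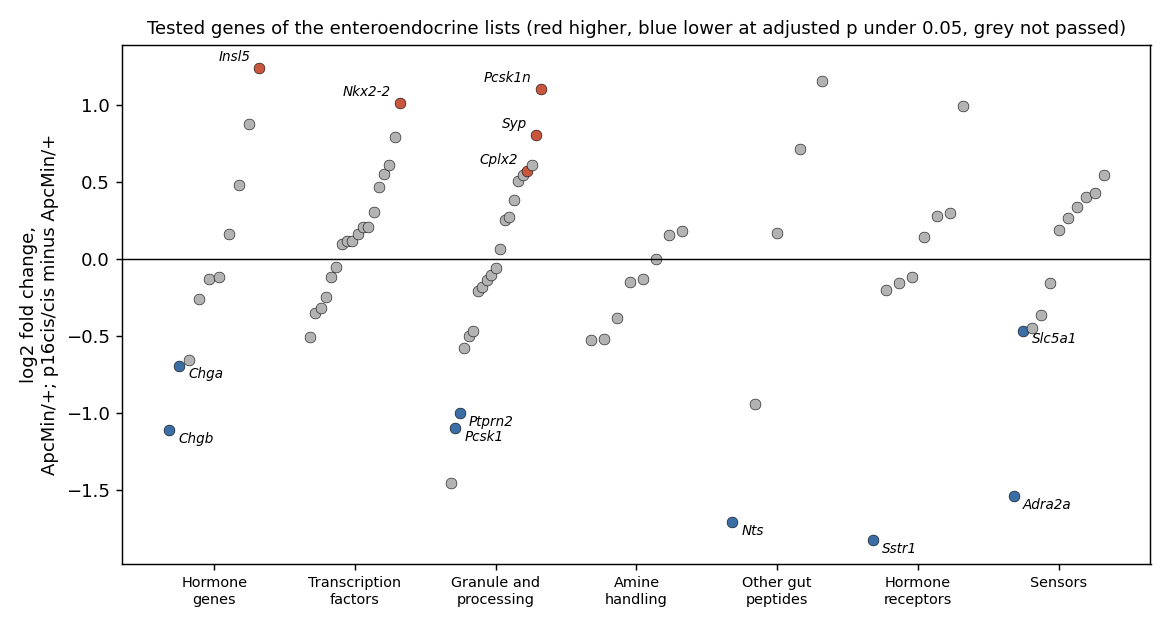
Log2 fold change (y axis, ApcMin/+; p16cis/cis minus ApcMin/+) of the tested genes in the 10 hormone genes and in the 6 enteroendocrine lists, sorted within each list. Red points passed higher and blue points lower in limma, grey points did not pass, and each called gene is named. Each of the 6 lists other than amine handling holds 1 to 5 called genes, and calls in both directions occur among the hormone genes and the granule genes.

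Genes that vary together with the members between mice of the same genotype were ranked by Pearson's r over 9 mice, after removal of the genotype means, with the mean standardized level of the 10 members. The 10 non-member genes of highest r were RP23-206I14.2 (0.97), Cpe (0.97), Ebf3 (0.96), Dhrs7 (0.95), Psen2 (0.94), Rab3c (0.93), Ccdc125 (0.93), Pithd1 (0.93), RP23-313J14.6 (0.92) and RP23-59B8.2 (0.90). They are the extremes of many genes over few mice and are given as a description. Cpe and Rab3c, a small GTPase of secretory vesicles, are in the granule list.

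Among the members themselves, Chga varied with Chgb (r = 0.82), Pyy (0.81) and Tph1 (0.80), and Gcg with Cck (0.75) and Insl5 (0.68). By r with Chga among 14409 genes, Chgb, Pyy and Tph1 were at ranks 154, 203 and 236. By r with Gcg, Cck and Insl5 were at ranks 128 and 275, so many other genes had as high an r. Gcg and Pyy, which L cells make together, had an r of -0.20 over these mice, and Insl5 and Pyy one of 0.25. Sct had an r between -0.43 and 0.22 with every other member. These values share the library, its depth and its sex with both genes of a pair.

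Markers of other cells were compared for the same mice. Of all tested genes, 16.9% passed and 33.2% had an unadjusted p under 0.05 in limma. Granins and neuropeptides are also made by enteric neurons, and of 12 neuron and glia markers 7 were at or under 10 in all mice, 3 were tested and 0 passed in limma, at an unadjusted p under 0.05, in edgeR or in DESeq2. Their sum was 99.8 to 159.6 in ApcMin/+ mice and 99.2 to 166 in the others, and the neuronal marker Elavl4 stayed at or under 9.40. Mast cells can also hold Tph1, and of 8 mast cell markers 5 were tested and 0 passed in limma or edgeR, with 3 at an unadjusted p under 0.05 and Cma1 higher in DESeq2. Their sum, mostly Kit, was 1466 to 1935 and 1281 to 1670.1. Kit had a log2 fold change of -0.27, while those of the other 4 tested markers were positive, at 1.03 for Mcpt1, 0.45 for Mcpt2 and 1.25 for Tpsb2, with Cma1 at 52.6 ± 24.9 (SD, n = 5) and 109.7 ± 53.1 (SD, n = 4). The mast cell protease Cpa3 stayed at or under 4.51.

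Smooth muscle markers summed to 41.9 to 357 and 37.6 to 113, with 5 of 6 tested and 0 passed in limma, edgeR and DESeq2 and 1 at an unadjusted p under 0.05. Immune markers summed to 136 to 1322 and 242 to 409, with Lyz2 (log2 fold change -1.56, limma adjusted p = 0.00745) and Jchain (-2.65, 0.0175) lower of 6 tested. At an unadjusted p under 0.05 limma gave 3. Among all tested genes 33.2% had such a p and 16.9% passed. The count tests edgeR and DESeq2 each called 3 lower, these 2 with Cd79a, and DESeq2 called Cd68 higher. Cd68 was at 21.6 to 41.3 and 40.6 to 116, a log2 fold change of 0.85 (limma adjusted p = 0.0903). Of 9 markers of epithelium, Slc26a3, the chloride exchanger of mature colonocytes, was lower (log2 fold change -1.23, limma adjusted p = 0.00848). Of these 9, 7 had negative fold changes, 4 had an unadjusted p under 0.05, edgeR called 1 and DESeq2 4, all lower (Slc26a3, Car1, Epcam and Vil1), and Epcam did not overlap, at 27841 to 38616 and 24444 to 26913. Of 6 goblet cell markers Spink4 was higher (log2 fold change 1.41, limma adjusted p = 0.0139). All 6 had positive fold changes, and 2 had an unadjusted p under 0.05 in limma. For this list edgeR called 1 and DESeq2 2, all higher (Spink4 and Agr2). Of 6 tuft cell markers 5 were tested and 0 passed in limma, edgeR and DESeq2 or at an unadjusted p under 0.05. These 5 had positive fold changes. The part of these markers in the hormone gene differences was not tested.

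The content of L cells and of Insl5 rises towards the distal colon in the mouse, so genes of position along the gut were examined as well. Of 11 Hox genes, all tested, Hoxb7 was lower (log2 fold change -0.65, limma adjusted p = 0.0206) and Hoxa7 (0.51, 0.0141) and Hoxd10 (1.35, 0.0341) were higher in ApcMin/+; p16cis/cis mice. The Hox genes had a median log2 fold change of 0.44, with 8 of 11 positive and 5 of 11 at an unadjusted p under 0.05. Among all tested genes 16.9% passed and 33.2% had an unadjusted p under 0.05 in limma. For the Hox genes edgeR called 1 lower and 1 higher and DESeq2 1 lower and 2 higher. Hoxd10 was counted at 206, 68.5, 37.1, 71.2 and 93.1 in ApcMin/+ mice and at 218, 155, 194 and 288 in the others, and its call held in 2 of 9 fits with 1 mouse left out and was lost in edgeR (adjusted p = 0.0613) and with sex as a covariate (limma adjusted p = 0.0807) and in females (0.376). Hoxb7 was not called with sex as a covariate (limma adjusted p = 0.0545), in females (0.163) or without ApcMin/+ replicate 2 (0.0550) or ApcMin/+; p16cis/cis replicate 4 (0.0633). Hoxd11, Hoxd12 and Hoxd13, which like Hoxb13 mark the distal gut, had log2 fold changes of 0.73, 0.93 and 0.76, and Hoxb13 of 0.44. Hoxa13 was level between the genotypes, with means of 1102 and 1101 and a log2 fold change of 0.012 (limma adjusted p = 0.966). Hoxd13, at 669 to 2377 and 1379.8 to 2640.5, and Hoxb13, at 4578 to 8869 and 6736 to 8466, overlapped and did not pass (limma adjusted p = 0.10 and 0.13, unadjusted p = 0.0264 and 0.0398). The part of the site of sampling in the hormone gene differences was not tested.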

How the data were processed

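RNA of colonic crypts was sequenced by the authors on the BGISEQ-500 platform after rRNA depletion and oligo dT selection, with alignment by BOWTIE2, gene levels by RSEM and comparison by DESeq2. Versions, genome build and annotation are not given in the sources used here. The deposited values are signal, in which the authors scaled the gene counts of every mouse by its own size factor. Dividing them by the value of 1 read gave whole reads (within 0.01) for 100% of positive values. How reads shared between similar genes were split, and whether strand was used, is not stated.

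The deposited Ensembl identifiers matched GENCODE M21 in 54079 of 54146 cases regardless of version. The test was that of limma 3.58.1 (R 4.3.3, trended variances), applied to log2(normalized count + 1). It took in 14410 genes that reached 10 in no fewer than 4 mice, had a single term for genotype, and used Benjamini-Hochberg adjustment over all genes. A test of counts had been planned, and limma was used because the values are normalized. Because of the added 1, fold changes of low genes are understated. Single genes were also compared by exact permutation, two-sided, with scipy 1.17.1. The alternatives were the count tests of DESeq2 1.42.0 and edgeR 4.0.16, given the recovered reads, TMM scaling, other filters, a pseudocount of 0.1, Bonferroni adjustment, a fold change over 2, the replicate block, females only, each mouse left out, and a covariate for sex or for mitochondrial share. Reads outside mitochondrial genes as the library size, and sex with ApcMin/+ replicate 4 left out, were added after seeing the data. The fit was tested on simulated data. Floors are 3 reads and cover counting error only.

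The text names the 10 members, the genes of each list that passed (otherwise some of the 3 with the highest mean) and the 10 genes of the most similar pattern. Neurog3, Fev, Insm1, Cpe, Maob, Ffar2, Tac1, Ghrl, Adm, Gip, Gast, Rxfp4, Glp1r, Glp2r, Elavl4, Epcam, Cdkn2a, Cma1, Cpa3, Mcpt1, Mcpt2, Tpsb2, Cd68, Cd79a, Car1, Vil1, Agr2, Hoxd11, Hoxd12, Hoxd13, Hoxa13 and Hoxb13 were named after their values were seen. The members and lists were chosen with earlier results of these data known.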

Additional observations from a re-analysis of the deposited data

Results flagged for a closer look

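In each group the highest and the lowest mouse were set against the others by Dixon's ratio at the 95% level, for the 10 hormone genes and the called genes of the lists. Of 54 groups 4 stood out, and chance alone gives about 2.7. The Insl5 count of ApcMin/+; p16cis/cis replicate 4 was 2170 (2169.7 before rounding), against 874.6 to 1041 in the other mice of its group. The same mouse had a Nkx2-2 count of 173.9, against 68.2 to 79.8. The Cplx2 count of ApcMin/+ replicate 1 was 266.7, against 196.4 to 208.2. The Lyz2 count of ApcMin/+; p16cis/cis replicate 3 was 40.57, against 19.1 to 22.7. ApcMin/+; p16cis/cis replicate 4 also had the highest counts of its group for Chga, Tph1 and Pyy.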

How the results depend on the processing

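Chgb kept its direction under 22 alternatives and passed in 19, Insl5 in 18 and Chga in 12. Of the hormone genes 2 were lower and 1 higher. With sex as a covariate 1 was lower, with females only 0 lower and 2 higher (limma, 4 at an unadjusted p under 0.05), with DESeq2 2 higher, with a fold change over 2 1 lower, and with Bonferroni adjustment or the mitochondrial share as a covariate 0 in either direction (limma, 5 and 2 at an unadjusted p under 0.05). Sex as a covariate without ApcMin/+ replicate 4, chosen after seeing the data, gave 1 lower and 2 higher. Leaving out single mice gave 1 to 3 lower and 0 to 2 higher.

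Over all genes 1261 were lower and 1173 higher. The counts were 761 and 676 with sex, 379 and 519 in females, 22 and 5 with Bonferroni, 237 and 264 with a fold change over 2, and 0 and 0 with the mitochondrial share (limma, 798 at an unadjusted p under 0.05). With 1 mouse left out they were 648 to 1797 and 535 to 1691, the fewest without ApcMin/+; p16cis/cis replicate 4.

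Cck turned to 0.061 with sex, 0.39 in females and 1.27 with the mitochondrial share, and ranged from -0.33 to 0.14 with 1 mouse left out. Neurod1 turned to 0.30 with the mitochondrial share and ranged from -0.25 to 0.016. With that share Ptprn2 turned to 0.053 and Spink4 to -0.045. The causes were not tested.

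Same-numbered mice are different animals, and the correlations of their deviations were -0.18, 0.07, 0.05 and 0.14, so the numbers do not pair them. With the replicate block 3 hormone genes were lower and 1 higher, and over all genes 1095 and 979, with Tph1 and Pyy passing and Insl5 not (limma adjusted p = 0.0715). Depth limits Cck most, with 10 to 60 reads in each library.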
